A study of Mus musculus with 39 samples.

Results

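Livers of mice on a Western diet differed widely in the transcript level of Fasn, the gene of fatty acid synthase, and the livers with the most Fasn were set against those with the least. The ranking took 28 of the 39 livers of the series, namely the Western diet livers of both genotypes other than CD163KO replicate M and CD163WT replicate A. Fasn was expressed as CPM, the raw count per 1000000 counts of the library. The 9 livers with the highest Fasn CPM were compared with the 9 lowest across all other genes, with genotype as a covariate, and the 10 livers between belong to neither group. The groups were thus chosen by a measured value, the Fasn level itself, and are no treatment, so each difference below is an association with Fasn level.

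All mice were male C57BL/6NTac animals from crosses of heterozygous carriers of the allele CD163tm1(KOMP)Vlcg, either CD163KO or CD163WT littermates. CD163 is a macrophage receptor for complexes of haemoglobin and haptoglobin, and no transgene or Cre driver is named in the labels. From 6 weeks of age they received Western diet and fructose in the water for 8 weeks (15 CD163KO and 15 CD163WT mice) or chow and plain water (4 CD163KO and 5 CD163WT mice). Each library is labelled as a replicate of liver tissue, and replicates are taken as separate animals. Fewer cells of a type cannot be told apart from less RNA per cell. The high Fasn group held 7 CD163KO and 2 CD163WT livers, and the low Fasn group held 4 CD163KO and 5 CD163WT livers.

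Fatty acid synthase builds palmitate from acetyl-CoA and malonyl-CoA, with NADPH as the reducing agent. In the liver this pathway, de novo lipogenesis, turns surplus sugar into fat. Its genes are known targets of the insulin-responsive factor SREBP-1c (gene Srebf1), of the sugar-responsive factor ChREBP (gene Mlxipl) and of the oxysterol receptors LXR, which also raise Srebf1.

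Total counts ran between 8578865 and 21141803 in the high Fasn livers and between 10329415 and 30438808 in the low Fasn livers, with no detectable difference in means (2-sided exact permutation test, p = 0.815, adjusted over 3 library measures 0.815). Library number (adjusted p = 0.502, exact permutation test) and genotype (adjusted p = 0.502, Fisher's exact test) also showed no detectable difference. Cd163 was at 0 to 0.811 CPM in all 19 CD163KO livers and at 2.54 to 15.0 CPM in all 20 CD163WT livers. The hepatocyte gene Alb (albumin) had median levels of 28262 CPM in high Fasn livers and 27566 CPM in low Fasn livers. The livers not ranked stood with chow: Csad, a taurine synthesis gene, was at 684 CPM in CD163KO replicate M and at 391 CPM in CD163WT replicate A, against 69.0 to 200.05 CPM in the 28 ranked livers. In the same way chow CD163KO replicate D (90.6 CPM) and chow CD163WT replicate A (268 CPM) stood apart from the other 7 chow livers (411.5 to 763 CPM). Chow ranges below therefore cover those 7 livers. Libraries CD163WT L and M, both low Fasn, were the closest pair of the 28 ranked livers. Their chi-square per gene was 3.97, against 10.4 for the next pair and a median of 49.2 over pairs. Labelled as 2 replicates, they were kept as 2 livers, and whether they came from 1 mouse was not tested.

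Fasn itself chose the groups and is given as a description. In the high Fasn group it was at 6010 CPM in CD163WT C, 2695 in CD163KO J, 2545 in CD163KO A, 2481 in CD163KO C, 2346 in CD163WT J, 1979 in CD163KO O, 1914 in CD163KO L, 1867 in CD163KO B and 1860 in CD163KO K. The low Fasn group had 957 CPM in CD163KO F, 949 in CD163WT N, 929 in CD163WT L, 810 in CD163WT H, 793 in CD163WT M, 702 in CD163KO D, 696 in CD163KO H, 680 in CD163WT F and 644 in CD163KO G. CD163WT C stood far above every other liver, and the remaining 27 livers formed a continuous range. Just outside the groups were CD163WT K with 1684 CPM, next to CD163KO K, and CD163WT G with 1058 CPM, next to CD163KO F. The mean was 2633 ± 1306 CPM in high and 796 ± 124 CPM in low Fasn livers (SD, n = 9 each), and 1398 ± 168 CPM in the 10 livers between. Ranked CD163KO livers averaged 1608 ± 699 CPM and ranked CD163WT livers 1595 ± 1345 CPM (SD, n = 14 each), the latter including CD163WT C. Their medians were 1663 and 1332 CPM. The 7 chow livers had 498 to 2120 CPM with a median of 729 CPM, and the highest of them, CD163KO replicate B, reached the range of the high Fasn group.

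**Figure D1:**
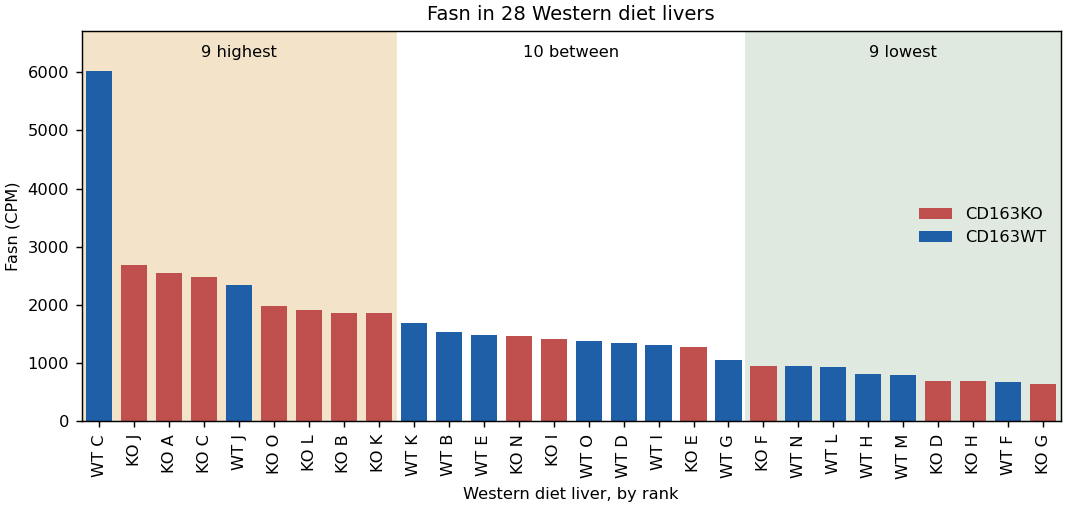
Fasn level in CPM (vertical axis, linear) in each of the 28 ranked Western diet livers, ordered by rank, with bars in red for CD163KO and blue for CD163WT. The 9 highest livers run between 6010 and 1860 CPM and the 9 lowest between 957 and 644 CPM.

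The promoters of 3 members of the programme are shown because the CCAAT box, a binding element of the factor NF-Y, lies close to the start of each. Each line gives the 100 bases before the transcription start, 5′ to 3′ on the strand of the gene, from RefSeq on build GRCm38.p6, with capitals for CCAAT on either strand (ATTGG is its reverse). The stretches are chr11:120824548-120824647 (minus strand) for Fasn, chr15:84167716-84167815 (plus strand) for Pnpla3 and chr7:97417551-97417650 (minus strand) for Thrsp. In Fasn, 2 of the 3 matches overlap.
Fasn: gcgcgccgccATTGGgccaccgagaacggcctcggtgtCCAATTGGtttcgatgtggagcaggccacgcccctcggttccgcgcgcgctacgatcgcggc
Pnpla3: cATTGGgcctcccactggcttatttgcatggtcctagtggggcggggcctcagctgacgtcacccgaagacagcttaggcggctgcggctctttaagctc
Thrsp: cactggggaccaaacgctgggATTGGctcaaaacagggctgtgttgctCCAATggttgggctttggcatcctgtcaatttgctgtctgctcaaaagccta

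RefSeq windows were at hand for 17 of 26 genes, counting Fasn and the genes called higher below. Within 250 bases before the start, CCAAT on either strand was found in 10 of these 17 (58.8%), against 37.5% of the 27025 genes with a window. It was found in 2 of 6 genes with a window among those called lower. The sterol regulatory element TCACNCCAC was found in 0 of 17, against 1.22% of all genes. The palindromic E box CACGTG was found in 1 of 17, Pnpla5, against 6.86% of all genes. These matches describe the letters in the windows.

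The high Fasn livers expressed more of 6 of the 14 other genes of fatty acid synthesis, more Srebf1, and more of a few genes of sugar entry, glycogen storage and lipid droplets. They also expressed more of 2 of 24 genes of cholesterol synthesis and uptake. They expressed less of 9 genes, among them Slfn4, Casp4 and Bmp2. Of 13690 genes tested other than Fasn, 25 were higher (0.183%) and 9 were lower (0.0657%) at an adjusted p under 0.05 (edgeR's quasi-likelihood test, Benjamini-Hochberg), 34 in all (0.248%). At an unadjusted p under 0.05 there were 1881 genes, and the median log2 fold change of all genes was 0.01. The groups did not overlap at all for 5 genes that were higher (0.0365%) and 1 that was lower (0.0073%), and among the called genes these were Anks4b, Srebf1, Uck1 and Bmp2. All 34 called genes kept their direction without any 1 of the 18 livers. The numbers of calls rested on few livers, though: without CD163WT C, 7 genes were higher and 3 lower, and without CD163KO D, 219 were higher and 394 lower. The number higher also moved by over 1.5 times without CD163KO H (16), CD163WT L (16) or CD163WT M (15), and the number lower without CD163KO A (20), B (5), C (3), F (0), G (2), H (2), J (5), K (4) or O (24) or CD163WT J (2) or L (5). By DESeq2, 113 genes were higher and 205 lower, including all 34, and without the genotype covariate 8 were higher and 5 lower. Without both CD163WT L and M the calls were Mid1ip1, Thrsp, Slc2a4, Elovl6 and Anks4b, and in CD163KO livers alone Mid1ip1 and Elovl6.

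**Figure D2:**
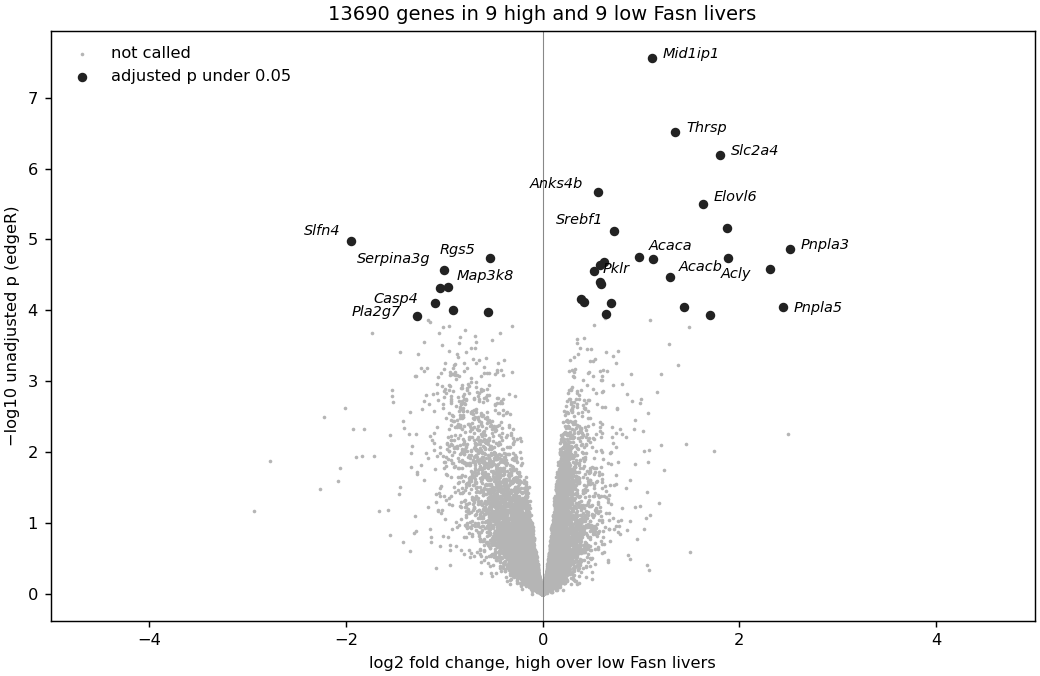
Each point is 1 of the 13690 genes tested, with the log2 fold change of high over low Fasn livers on the horizontal axis and −log10 of the unadjusted edgeR p on the vertical axis. Black points are the 34 genes with an adjusted p under 0.05, led by Mid1ip1 and Thrsp among the 25 on the right and by Slfn4 among the 9 on the left.

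Fatty acid synthesis enzymes had positive log2 fold changes throughout. Of the 14 other members of the list, 6 were called higher (Mid1ip1, Thrsp, Elovl6, Acly, Acaca and Acacb) and 0 lower, all 14 had a positive log2 fold change and all 14 had an unadjusted p under 0.05. Their median log2 fold change was 1.16, beside 0.01 over all genes tested, where 0.183% were called higher. The remaining 8 did not pass.

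The supply of acetyl-CoA comes first. Acly, which cleaves citrate in the cytosol to acetyl-CoA, had a lowest, median and highest level of 182, 341 and 1959.6 CPM in high Fasn livers, against 78.7, 163 and 235 CPM in low Fasn livers. Only CD163KO B of the high group fell within the range of the low group, and the log2 fold change was 1.88 ± 0.32 (SE; adjusted p = 0.0202). Slc25a1, the citrate exporter of mitochondria, spanned 248 to 375 CPM against 204 to 271 CPM and did not pass (0.36 ± 0.08, adjusted p = 0.0805). In 8 of 9 high Fasn livers Slc25a1 was above every low Fasn liver. Acss2, which makes acetyl-CoA from acetate, spanned 91.7 to 628 CPM against 78.1 to 127 CPM (1.21 ± 0.30), and Aacs, which activates acetoacetate, spanned 73.0 to 215 CPM against 31.4 to 165 CPM (1.37 ± 0.33). Neither passed (adjusted p = 0.0874 each).

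Acetyl-CoA carboxylase makes malonyl-CoA, the step that commits carbon to fat. Acaca, its cytosolic form, had a lowest, median and highest level of 93.5, 135 and 350 CPM in high Fasn livers, against 55.4, 79.7 and 99.7 CPM in low Fasn livers. In 7 of 9 high Fasn livers the level was above every low Fasn liver, with a log2 fold change of 1.12 ± 0.20 (adjusted p = 0.0202). For Acacb, the form at the mitochondrial surface, the levels were 66.8, 157 and 371 CPM against 60.8, 72.5 and 87.2 CPM (1.29 ± 0.24, adjusted p = 0.0243). CD163KO B was the exception again, as the only high Fasn liver within the low range of Acacb.

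Mid1ip1 and Thrsp encode related small proteins, and that of Mid1ip1 promotes the polymerisation of acetyl-CoA carboxylase. Mid1ip1 had the smallest p of all genes, with 109, 148 and 201 CPM in high Fasn livers against 52.5, 78.6 and 110.1 CPM in low Fasn livers (lowest, median and highest; log2 fold change 1.11 ± 0.13, adjusted p = 3.79e-04). A lone liver of each group crossed over, CD163KO L below CD163WT N. Thrsp, whose promoter is shown above, had 595, 915 and 2196 CPM against 255, 480 and 632 CPM (1.35 ± 0.18, adjusted p = 0.00208), with the same pair of livers crossing. Mid1ip1 was highest in CD163WT J, at 201 CPM, and not in CD163WT C, which had 142 CPM and the highest Thrsp.

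NADPH for the synthesis comes from malic enzyme and the pentose phosphate pathway. Me1, cytosolic malic enzyme, was at 117, 275 and 1003 CPM in high Fasn livers against 78.6, 112 and 199.9 CPM in low Fasn livers and just missed the threshold (1.49 ± 0.31, adjusted p = 0.0550). Pgd (0.71 ± 0.19, adjusted p = 0.105), Idh1 (0.33 ± 0.10, adjusted p = 0.148) and G6pdx (0.53 ± 0.24, adjusted p = 0.342) did not pass. G6pdx had low levels of 3.60 to 15.3 CPM against 2.96 to 7.95 CPM, with CD163WT C alone above the low range.

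Elongation and desaturation follow palmitate. Elovl6, which extends palmitate to stearate, was at 206, 324 and 1104 CPM in high Fasn livers against 102, 132 and 219 CPM in low Fasn livers (1.63 ± 0.25, adjusted p = 0.00877), and CD163KO L was the only high liver within the low range. Scd1, the delta-9 desaturase, was at 17421, 21620.1 and 41335 CPM against 8275, 13764 and 20045 CPM, and its groups overlapped (0.89 ± 0.23, adjusted p = 0.0874). Of 12 desaturase and elongase genes, only Elovl6 was called, and the median log2 fold change was 0.19.

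CD163WT C, the liver with the most Fasn, was the highest of the high group for 13 of the 14 enzymes. The share of all genes for which CD163WT C was highest was not taken. Without CD163WT C the enzymes kept a median log2 fold change of 0.83 with 14 of 14 positive. Then 3 were called (Mid1ip1, Elovl6 and Thrsp), beside 7 of 13729 genes called higher over all. Without CD163KO D, 12 of the 14 were called higher, beside 219 of 13728 genes over all. Elovl6, Mid1ip1 and Thrsp were called in all 18 fits that each left out 1 liver.

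**Figure D3:**
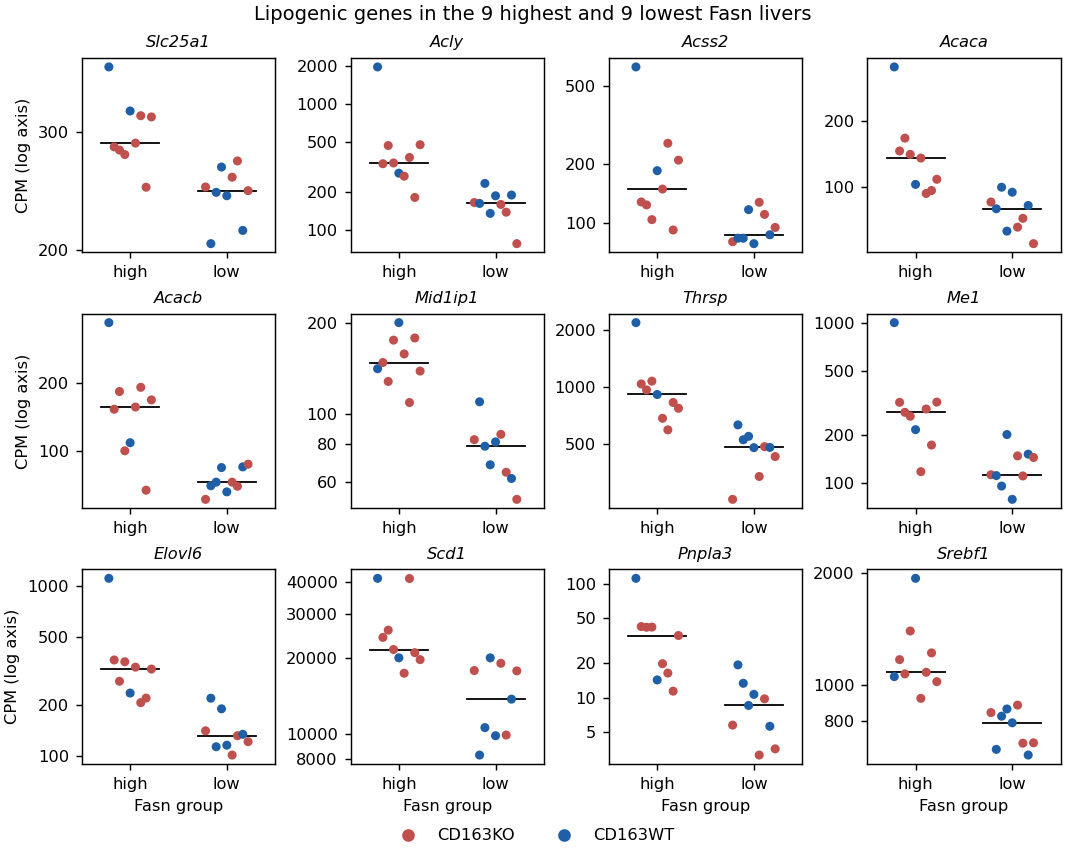
Level of 12 lipogenic genes in CPM (log axis, own scale per panel) in each of the 9 high (left) and 9 low (right) Fasn livers, ordered by Fasn rank within a group, in red for CD163KO and blue for CD163WT, with a line at the median. Medians of high Fasn livers lie above those of low Fasn livers in each panel, CD163WT C is the top point in most, and Srebf1 alone of these 12 shows groups that do not overlap.

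Among the regulators, edgeR called Srebf1 between the groups, and its partners did not pass there. Srebf1 had a lowest, median and highest level of 923, 1084 and 1938 CPM in high Fasn livers, against 650.2, 794 and 885 CPM in low Fasn livers. The groups did not overlap, with a log2 fold change of 0.73 ± 0.12 (adjusted p = 0.0148), and the call stood in all 18 fits without 1 liver. It was lost without both CD163WT L and M (adjusted p = 0.0592), without CD163WT F, L, M and N (0.154), in CD163KO livers alone (0.311) and in CD163WT livers alone (0.173). Rai1 lies on the opposite strand over Srebf1. CD163WT J, and not CD163WT C, had the highest Srebf1. Counts per gene do not separate its transcripts, so the share of the SREBP-1c form is not known.

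Of the 16 regulators tested, Srebf1 alone was called. Insig1, which holds SREBP precursors in the endoplasmic reticulum and is an SREBP target, came next with 208, 291 and 430.6 CPM against 142, 189 and 270 CPM (0.61 ± 0.15, adjusted p = 0.0874). Mlxipl, the gene of ChREBP, had medians of 1377 and 1375 CPM in high and low Fasn livers (0.11 ± 0.21, adjusted p = 0.873). Nr1h3, the gene of LXRα, had medians of 144 and 140.3 CPM (0.02 ± 0.07, adjusted p = 0.921), and its direction changed between settings, as did that of Mlxipl. Srebf2, the gene of the sterol-responsive SREBP-2, had 0.16 ± 0.10, Insig2 0.21 ± 0.14, and Mlx, the partner of ChREBP, 0.08 ± 0.08. The list spanned log2 fold changes between -0.12 and 0.73, with 13 of 16 positive and a median of 0.08. LXR target genes showed 1 of 10 called, again Srebf1, and a median of 0.11.

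Sugar entry and the path to acetyl-CoA gave a second group of genes. Pklr, liver pyruvate kinase, was at 492.6, 621 and 1179 CPM in high Fasn livers against 221, 365 and 608 CPM in low Fasn livers (0.98 ± 0.17, adjusted p = 0.0202). All low livers except CD163WT F lay below the whole high group. Hcn3 lies on the opposite strand over Pklr, and since the strand setting of the counting is not given in the sources used here, reads of the pair cannot be told apart. Pdhb, a subunit of the pyruvate dehydrogenase that makes mitochondrial acetyl-CoA, was at 168, 220.0 and 266 CPM against 146, 167 and 190.3 CPM (0.53 ± 0.10, adjusted p = 0.0214).

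Slc2a4, the insulin-responsive glucose transporter GLUT4 of muscle and fat, had low but graded counts. It was at 1.89, 3.15 and 9.95 CPM in high Fasn livers against 0.782, 1.35 and 2.23 CPM in low Fasn livers (1.81 ± 0.25, adjusted p = 0.00299), and was called in all 18 fits without 1 liver. The 7 chow livers had 0 to 0.590 CPM, all below every low Fasn liver. Of 6 markers of fat cells, in which this transporter is abundant, 2 had enough counts to be tested, and neither was called. Cfd had medians of 41.5 and 14.2 CPM in high and low Fasn livers, and Fabp4 18.1 and 16.8 CPM. Of their log2 fold changes 1 was positive and 1 negative, with a median of -0.13. Adipoq, Plin1, Lep and Retn were at 0 in 13, 12, 17 and 9 of the 18 livers. A part of fat cells in the Slc2a4 level was not tested.

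Ppp1r3b, which targets protein phosphatase 1 to glycogen and favours glycogen storage, was at 334, 460.3 and 547 CPM against 236, 314 and 421.9 CPM (0.63 ± 0.11, adjusted p = 0.0205). Of 19 glycolysis and fructose genes, Pklr alone was called, while 18 were positive and 12 had an unadjusted p under 0.05, with a median of 0.31. Among those that missed was Tkt, transketolase (0.52 ± 0.12, adjusted p = 0.0867). By DESeq2, 5 members were called higher, beside 113 of 13690 genes over all. Without CD163KO D it was also 5, beside 219 of 13728 genes.

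Lipid droplet genes included some of the largest changes. Pnpla3, a lipid droplet protein of the patatin family and a known target of SREBP-1c in mouse liver, had the largest called rise. Its levels were 11.4, 35.2 and 112 CPM in high Fasn livers against 3.14, 8.55 and 19.4 CPM in low Fasn livers (2.51 ± 0.41, adjusted p = 0.0202). The adjacent family member Pnpla5 was at 1.75, 5.27 and 24.995 CPM against 0.474, 1.27 and 3.24 CPM (2.45 ± 0.48, adjusted p = 0.0423). Both overlapped between groups, with 6 of 9 high Fasn livers above the whole low group for Pnpla3 and 7 for Pnpla5. Of the 18 fits without 1 liver, Pnpla3 was called in 17 and Pnpla5 in 5. Of 18 lipid droplet and lipase genes only Pnpla3 was called, with a median of 0.16. Cidec, a droplet fusion protein, ranged from 14.7 to 75.2 CPM against 6.10 to 105 CPM (-0.12 ± 0.55, adjusted p = 0.952).

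Gpam, the mitochondrial enzyme that starts glycerolipid assembly, was at 206, 350.1 and 956 CPM in high Fasn livers against 140, 173 and 258 CPM in low Fasn livers and just missed the threshold (1.09 ± 0.23, adjusted p = 0.0504). Of 12 triglyceride assembly genes edgeR called 0, and 3 had an unadjusted p under 0.05.

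Cholesterol genes had mostly positive log2 fold changes, up to 1.02. Of 24 genes of cholesterol synthesis and uptake, 2 were called higher and 0 lower, 23 were positive, 19 had an unadjusted p under 0.05 and the median was 0.52. Among those that missed, Lss, lanosterol synthase, had the lowest p (0.52 ± 0.11, adjusted p = 0.0550).

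Other protein-coding genes called higher had small changes and narrow ranges. Anks4b, a scaffold of epithelial microvilli, was at 79.4, 94.8 and 123 CPM in high Fasn livers against 59.3, 68.8 and 79.4 CPM in low Fasn livers (0.56 ± 0.09, adjusted p = 0.00728). Its groups met but did not overlap, and it was called in all 18 fits without 1 liver. Uck1, a uridine and cytidine kinase, was at 72.2, 81.2 and 101 CPM against 43.8, 52.9 and 70.1 CPM (0.59 ± 0.11, adjusted p = 0.0272), also without overlap. Pomt1 lies on the opposite strand over Uck1. Slc25a44, a mitochondrial carrier of branched-chain amino acids, was at 82.6, 96.5 and 127 CPM against 58.3, 63.5 and 87.9 CPM (0.58 ± 0.11, adjusted p = 0.0210). Vac14, a scaffold of the lipid kinase PIKfyve, was at 32.6, 35.9 and 44.8 CPM against 23.5, 30.2 and 34.4 CPM (0.42 ± 0.08, adjusted p = 0.0399). Fam185a had narrow ranges of 9.85 to 11.5 CPM against 6.9998 to 9.89 CPM (0.39 ± 0.08, adjusted p = 0.0399), and 8 of 9 high Fasn livers were above the whole low group. Of the 18 fits without 1 liver, Slc25a44 was called in 14, Uck1 in 10, Vac14 in 5 and Fam185a in 4.

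Of the predicted genes called higher, 2 are processed pseudogenes of lipogenic enzymes and 2 are neighbours of them. Gm7049, 98.4% identical to Me1 over 1716 aligned bases, was at 0.937 to 5.79 CPM against 0.395 to 1.28 CPM (1.88 ± 0.31, adjusted p = 0.0148). Gm11295, 97.4% identical to Elovl6 over 805 aligned bases, was at 0.233 to 5.79 CPM against 0 to 1.01 CPM (2.31 ± 0.43, adjusted p = 0.0214). Counting can give reads of the parent gene to such copies, so these values are uncertain. Gm11773, an antisense gene within Ccdc57 beside Fasn (1.44 ± 0.29, adjusted p = 0.0423), and AC151478.3 next to Scd1 (1.70 ± 0.35, adjusted p = 0.0480) had medians of 3.53 and 2.47 CPM in high Fasn livers against 1.34 and 0.965 CPM in low Fasn livers. Without the strand setting, reads of Gm11773 and Ccdc57 cannot be told apart. Of the 18 fits without 1 liver, Gm7049 and Gm11295 were called in 17 each, Gm11773 in 6 and AC151478.3 in 4.

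Genes called lower in the high Fasn livers were 9, none of which is in the marker lists, and whole-liver RNA does not assign them to cells. Slfn4, a Schlafen gene of myeloid cells, was at 0.174, 0.391 and 1.02 CPM in high Fasn livers against 0.483, 1.37 and 3.32 CPM in low Fasn livers (-1.94 ± 0.33, adjusted p = 0.0179). Pla2g7, the macrophage enzyme that degrades platelet-activating factor, was at 0.705, 1.04 and 2.93 CPM against 2.05, 2.701 and 7.46 CPM (-1.28 ± 0.27, adjusted p = 0.0480). Casp4, a caspase that senses bacterial lipopolysaccharide in the cytosol, was at 0.816, 1.42 and 1.89 CPM against 1.45, 3.02 and 4.26 CPM (-1.09 ± 0.22, adjusted p = 0.0399). In each of these the groups overlapped in part, with 6 of 9 high Fasn livers below the whole low group for Slfn4, 8 for Pla2g7 and 6 for Casp4.

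Serpina3g, a serine protease inhibitor, was at 2.15, 3.38 and 5.82 CPM in high Fasn livers against 4.10, 6.20 and 10.3 CPM in low Fasn livers (-1.01 ± 0.19, adjusted p = 0.0214). Map3k8, a kinase of inflammatory signalling, was at 1.504, 1.80 and 3.52 CPM against 2.56, 3.88 and 5.52 CPM (-0.97 ± 0.19, adjusted p = 0.0285). For both genes 8 of 9 high Fasn livers were below the whole low group. Sh3bgrl3, which Ubxn11 overlaps on the opposite strand, was at 5.83, 7.19 and 11.1 CPM against 6.09, 16.009 and 22.4 CPM (-0.91 ± 0.19, adjusted p = 0.0455), where CD163KO D alone of the low Fasn livers fell in the range of the high group. A630001G21Rik was at 0.558, 0.937 and 1.34 CPM against 0.995, 1.66 and 3.52 CPM (-1.05 ± 0.20, adjusted p = 0.0285). These calls varied with the livers used, from 16 of the 18 fits without 1 liver for Slfn4 and Rgs5 to 3 for Sh3bgrl3 and Pla2g7. CD163KO F, the library with the most counts (30438808), was the highest low Fasn liver for 7 of the 9 genes. The share of all genes for which CD163KO F was highest was not taken. Without CD163KO F edgeR called 0 genes lower, with 758 lower at an unadjusted p under 0.05.

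Bmp2, a growth factor made by liver endothelium that raises hepcidin, was at 7.12, 10.4 and 13.2 CPM in high Fasn livers against 13.3, 14.4 and 20.5 CPM in low Fasn livers. These groups met but did not overlap (-0.56 ± 0.12, adjusted p = 0.0469). Rgs5, a marker of pericytes and smooth muscle, was at 26.9, 36.9 and 46.2 CPM against 32.8, 38.5 and 83.2 CPM (-0.53 ± 0.09, adjusted p = 0.0202), and its groups overlapped widely. The medians of Rgs5 lay close together, and the fitted difference is that within genotypes.

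**Figure D4:**
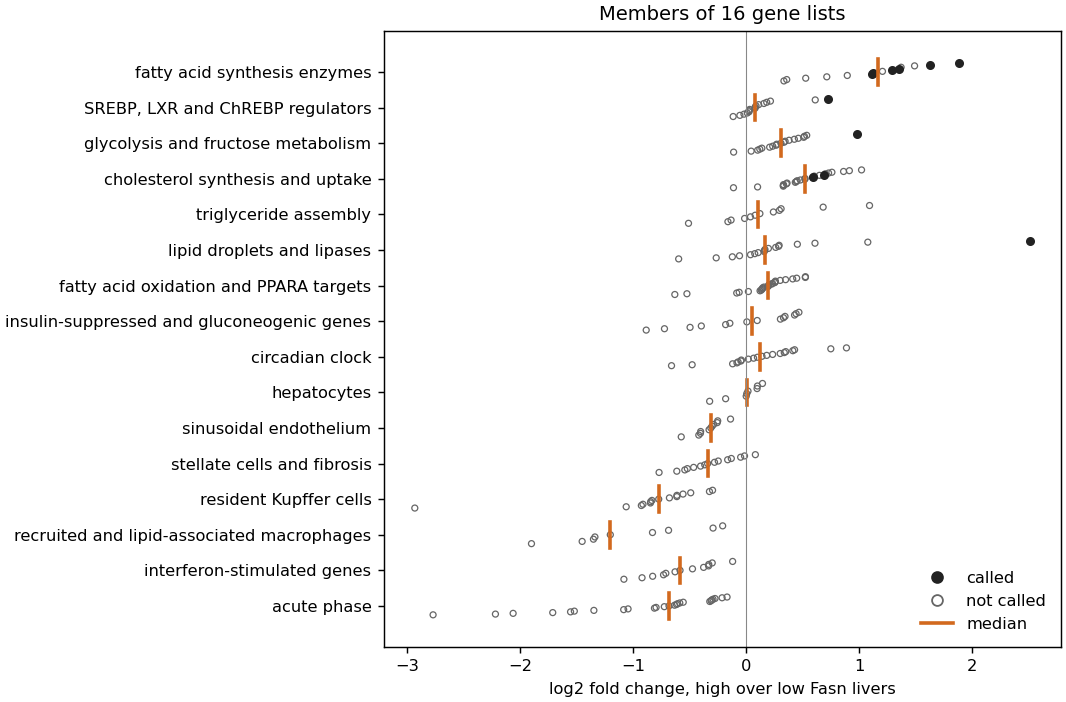
Log2 fold change of high over low Fasn livers (horizontal axis) for each tested member of 16 gene lists, 1 list per row, filled where called and open where not, with an orange bar at the list median. Fatty acid synthesis enzymes have a median of 1.16, whereas macrophage, endothelial, interferon and acute phase members lie left of 0 with none called.

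Macrophage, interferon and acute phase genes had negative log2 fold changes throughout, with no member called. All 15 Kupffer cell markers were negative (median -0.77), 9 with an unadjusted p under 0.05, and all 9 tested markers of recruited and lipid-associated macrophages were negative (median -1.20), 6 with an unadjusted p under 0.05. All 13 interferon-stimulated genes (median -0.59) and all 25 acute phase genes (median -0.68) were negative as well, with 6 and 10 at an unadjusted p under 0.05. edgeR called 0 members of any of the 4 lists, and DESeq2 called 4, 2, 1 and 5 lower, beside 205 of 13690 genes over all. Over all genes tested, 6462 of 13690 were negative.

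Summed marker levels differed between the groups in the same direction. Kupffer markers summed to 236 to 812 CPM in high Fasn livers (median 524) and 532 to 1122 CPM in low Fasn livers (median 785), and none of the 15 was at 0 in any of the 18 livers. Markers of recruited macrophages summed to 32.3 to 77.1 CPM (median 47.9) and 35.2 to 208 CPM (median 70.6), the top being CD163KO F. The 11 endothelial markers were all negative (median -0.31), 8 with an unadjusted p under 0.05, and summed to 272 to 475 CPM against 353 to 589 CPM. Of these edgeR called 0, DESeq2 called Clec4g lower, and edgeR without CD163KO D called Lyve1 and Clec4g lower. The 8 hepatocyte markers had a median of 0.01. Stellate cell markers were negative in 14 of 15 (median -0.34, 3 with an unadjusted p under 0.05) and all 3 tested lymphocyte markers were negative (median -0.43), while all 4 tested red blood cell markers were positive (median 0.50). Unlike these fitted values, plain medians of Col1a1, Col3a1, Reln, Lox and Vim were higher in high than in low Fasn livers. Medians of the other tested stellate markers were lower. Col1a1 had medians of 26.8 and 24.5 CPM, with up to 168 CPM in the low group. Of 9 neutrophil markers, 2 had enough counts to be tested, and both were negative with an unadjusted p under 0.05. S100a9, a calcium-binding protein of neutrophil granules, had medians of 0.284 and 1.74 CPM in high and low Fasn livers (-2.01 ± 0.57, adjusted p = 0.122), and Csf3r, the receptor of granulocyte colony-stimulating factor, had 3.17 and 5.97 CPM (-0.77 ± 0.32, adjusted p = 0.281). DESeq2 called S100a9 lower. Ly6g, a defining neutrophil marker, was at 0 in 14 of 18 livers. The part of cell content in the 9 lower genes was not tested.

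Acute phase genes are made by hepatocytes during inflammation, and here they varied widely within the low Fasn group and among the 10 livers between. Their mean log2(CPM + 1) was 6.47, 6.82 and 7.72 in high Fasn livers against 6.53, 7.92 and 9.18 in low Fasn livers (lowest, median and highest). The upper end of the low group was CD163WT F, L, M and N, and its lowest liver was CD163KO D, which lay in the range of the high group. CD163KO D was also the lowest of the low Fasn livers for the lists of interferon-stimulated genes, recruited macrophages and stellate cells, and had the lowest level for 5 of the 9 called genes. The share of all genes for which CD163KO D was lowest was not taken. CD163KO F was the highest of the low Fasn livers for those lists and for Kupffer cells. List counts were not taken without CD163KO F. Without CD163KO D, edgeR called 4 of 25 acute phase, 5 of 13 interferon, 4 of 9 recruited macrophage and 3 of 15 Kupffer genes lower. Over all genes that fit called 394 of 13728 lower. Without CD163WT F, L, M and N, 4 genes were higher and 0 lower over all genes, with 1088 lower at an unadjusted p under 0.05, and the acute phase median was -0.35 with 23 of 25 negative. In CD163KO livers alone that median was -0.19 with 17 of 25 negative, whereas the Kupffer median was -0.63 with all 15 negative.

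**Figure D5:**
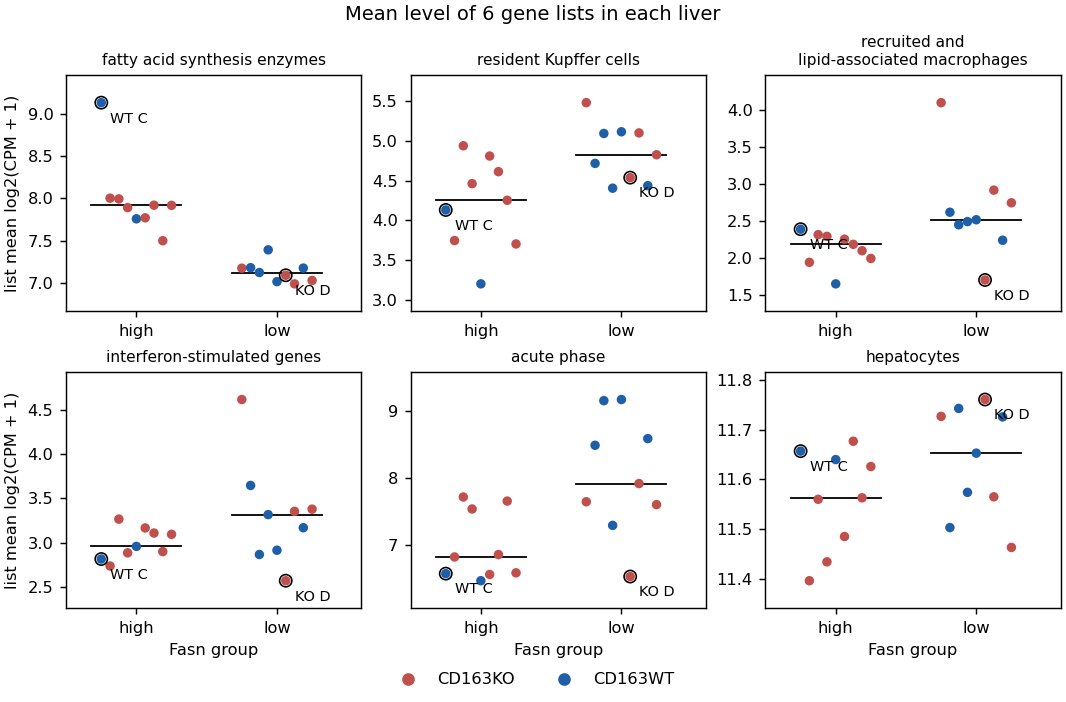
Mean log2(CPM + 1) of 6 gene lists in each of the 9 high (left) and 9 low (right) Fasn livers, with 1 point per liver in red for CD163KO and blue for CD163WT, lines at the medians, and CD163WT C and CD163KO D ringed and named. Fatty acid synthesis enzymes run between 7.50 and 9.13 against 6.99 and 7.39, and CD163KO D lies low in the low Fasn group for recruited macrophages, interferon and acute phase genes.

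Many liver programmes gave no call. Among 14 genes that insulin suppresses or that serve gluconeogenesis, edgeR called 0, with 4 higher and 2 lower at an unadjusted p under 0.05. Pck1, the rate-limiting gluconeogenic enzyme, came closest with 610.2, 969.6 and 1889 CPM in high Fasn livers against 1116, 2115 and 2665 CPM in low Fasn livers (-0.89 ± 0.22, adjusted p = 0.0874). Irs2, the insulin receptor substrate, had -0.72 ± 0.29 and Igfbp1 had -0.50 ± 0.47 (adjusted p = 0.272 and 0.688). Of 25 genes of fatty acid oxidation and PPARA targets, 0 were called, with a median of 0.20, and of 20 circadian clock genes 0 were called, with a median of 0.12. Unadjusted, 7 of the oxidation genes and 2 of the clock genes had a p under 0.05. DESeq2 called Pck1 lower and the clock gene Bhlhe40 higher, and so did edgeR without CD163KO D. Without CD163KO D, edgeR also called the oxidation genes Cpt2 and Ehhadh higher.

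Clock genes varied far within each group. Dbp, an output gene of the clock with a large daily swing, ranged from 1.04 to 141 CPM in high Fasn livers and from 1.30 to 33.8 CPM in low Fasn livers (0.89 ± 0.87, adjusted p = 0.705). Pericentral genes (median 0.04 over 13 genes) and periportal genes (median -0.03 over 13 genes) stayed near the median of all genes.

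Using all 28 ranked livers and the log2 of Fasn as a continuous term gave more calls. Of 15190 genes, 76 rose with Fasn (0.5%) and 13 fell (0.0856%), with genotype as a covariate. The fits share libraries and the Fasn values, so they are given side by side: 27 genes were called by both, 79.4% of the 34 group calls and 30.3% of the 89 slope calls. Each unit of log2 Fasn went with a log2 change of 1.00 ± 0.10 for Acly, 0.89 ± 0.08 for Elovl6, 0.62 ± 0.06 for Acaca, 0.69 ± 0.07 for Thrsp and 1.33 ± 0.16 for Pnpla3. Acly thus had a slope near 1, and Acaca and Thrsp shallower ones.

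The slope called 12 of the 14 fatty acid synthesis enzymes, all but Idh1 and G6pdx. It also called 6 of 19 glycolysis and fructose genes, among them Tkt (0.30 ± 0.05, adjusted p = 0.00252), and 8 of 24 cholesterol genes. Of the 16 regulators it called 2, Srebf1 and Insig1. Further genes of carbon entry were Cs, citrate synthase (0.25 ± 0.04, adjusted p = 8.16e-05), Dlat, the acetyltransferase subunit of the pyruvate dehydrogenase complex (0.37 ± 0.07, adjusted p = 0.00579), and Pdk1, a kinase that inhibits this enzyme (0.38 ± 0.08, adjusted p = 0.00844). Gpam passed here (0.61 ± 0.08, adjusted p = 2.69e-05). Without CD163WT C, 12 genes rose and edgeR called 0 that fell, with 822 falling at an unadjusted p under 0.05.

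For 30 of the 34 called genes, the median of the 10 livers between lay between the medians of the high and low groups. Rgs5 was among the 4 outside. Srebf1, for example, had a median of 947 CPM in the 10 livers between, Thrsp 665 CPM and Pnpla3 15.8 CPM. The called genes were picked for a difference between the high and low groups, and the 10 livers for intermediate Fasn. The share over all genes was not taken, so the count is a description only.

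Whether the association differed between genotypes was asked by an interaction term. edgeR called 0 of 13690 genes (0.0%), with 854 at an unadjusted p under 0.05, and DESeq2 called 33. The genes with the smallest p were Wdr45b (1.30 ± 0.24), Ccdc117 (0.99 ± 0.19) and Rnf144b (1.03 ± 0.20; adjusted p = 0.258 each) and St3gal4 (0.94 ± 0.19, adjusted p = 0.347), with the effect in CD163KO minus that in CD163WT. Only 2 CD163WT livers were in the high group, which limits this term. Within CD163KO livers alone, 7 against 4, the enzymes had a median of 0.95 with 14 of 14 positive, and 2 genes were called, Mid1ip1 and Elovl6.

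The chow livers put the range on Western diet in context, without a test. CD163KO chow replicate B, with 2120 CPM of Fasn, was the highest of the 7 chow livers for 16 of the 25 genes called higher and for 8 of the 14 enzymes. The share of all genes for which this liver was highest was not taken, so these counts have no baseline. CD163KO chow replicate B had 605 CPM of Thrsp, 374 CPM of Acly and 283 CPM of Acacb, against medians of 200, 220 and 100.4 CPM over the 7. Its Pnpla3, at 8.92 CPM, and its Srebf1, at 406.3 CPM, were below all high Fasn livers on Western diet. Srebf1 was at 210.03 to 421.9 CPM in the 7 chow livers, all below every low Fasn liver, and so were Slc2a4 and AC151478.3. These were 3 of the 25 genes called higher, and the share over all genes was not taken.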

How the data were processed

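Liver RNA was sequenced as 39 paired-end libraries. The authors deposited 1 table of raw read counts per gene, 55416 genes by 39 libraries, of which 52083 have a symbol. The submitters' processing notes name FastQC, MultiQC, STAR 2.7.8a, featureCounts 2.0 and build GRCm39. The gene annotation and the strand setting of the counting are not given in the sources used here. Genes present in low numbers were removed with filterByExpr (minimum count 10, minimum total 15, by Fasn group). The comparison used edgeR 4.0.16 in R 4.3.3 (limma 3.58.1) with TMM scaling, Fasn group and genotype as terms, robust dispersions, the quasi-likelihood test and Benjamini-Hochberg adjustment over the genes tested without Fasn; a gene is called at an adjusted p under 0.05. CPM are counts over the library total, fold changes come from the TMM fit, and SE is the log2 fold change over the square root of F. The same model with a slope on log2 Fasn or with a genotype interaction gave the other 2 comparisons. Lists are described by counts and medians of their tested members. The scripts were tested on simulated counts.

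Genes were named by a rule: Fasn; among called genes, the 10 that rose most and the 10 that fell most (mean of at least 1 CPM, no predicted name); every measured fatty acid synthesis enzyme and regulator; the 4 with the smallest p of any other pathway list with at least 3 calls; called markers; and for the interaction the called genes or the 4 with the smallest p. The other called genes, the slope genes and the further list members given with values were added after their values were seen. Single results of some genes are not reported here, although counts and lists include them, and 9 regulators are given as a range. The members, the 36 gene lists and the tests were chosen with earlier results of these data known. Intervals and p-values cover the spread between mice, with CD163WT L and M counted as 2. Alternatives were RLE scaling, DESeq2 1.42.0, no filter, other covariates, other rankings and splits, a replicate block, each genotype alone, and leaving out each liver. The labels do not say whether replicate letters pair the genotypes. Over 13 letters, the correlation of deviations averaged 0.0103 (-0.292 to 0.433), with 4 over 0.1. This average cannot show that no letter pairs mice. Python 3.11.15 with numpy 2.4.6, scipy 1.17.1, pandas 2.3.3 and matplotlib 3.10.9 served for ranks, exact tests and figures, and blastn 2.17.0 for pseudogene identity. Promoter sequences are from RefSeq on GRCm38.p6, and no coordinates of the 2 builds were mixed.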

Additional observations from a re-analysis of the deposited data

Results flagged for a closer look

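In 40 genes, Fasn included, each group of 9 livers was searched for a highest or lowest liver far from its nearest neighbour (a gap over 0.493 of the range of the group, Dixon's 95% value for 9). It was met in 23 of 80 groups. Chance gives about 1 in 20 groups of independent values, a rate that cannot be set against these: Fasn made the groups, and most of the other genes were picked for a difference between them. Of these 23, 15 were CD163WT C in the high Fasn group. It had 6009.6 CPM of Fasn, 1959.6 of Acly, 349.8 of Acaca, 371.3 of Acacb, 628.0 of Acss2, 2195.8 of Thrsp and 1103.6 of Elovl6. It also had 1002.9 CPM of Me1, 204.4 of Pgd, 15.28 of G6pdx, 1179.4 of Pklr, 111.8 of Pnpla3, 24.995 of Pnpla5 and 5.79 each of Gm7049 and Gm11295. In the high group too, CD163WT J stood apart with 1937.5 CPM of Srebf1, CD163KO L with 5.82 CPM of Serpina3g and CD163KO A with 3.52 CPM of Map3k8. In the low Fasn group, CD163KO F stood apart with 7.46 CPM of Pla2g7 and 7.95 CPM of G6pdx, CD163KO D with 473.4 CPM of Idh1, CD163WT H with 165.4 CPM of Aacs and CD163WT F with 1.28 CPM of Gm7049.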

How the results depend on the processing

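Against 25 genes higher and 9 lower, DESeq2 gave 113 and 205, no filter on low counts gave 24 lower, no genotype covariate gave 8 and 5, and the 14 highest against the 14 lowest livers gave 51 lower. Ranking 30 Western diet livers gave 2 lower, CD163WT livers alone gave 3 and 2, and edgeR on CD163KO livers alone gave 2 higher and 0 lower (985 lower at an unadjusted p under 0.05). Without CD163WT L and M, 5 were higher and edgeR called 0 lower (1110 unadjusted). Without CD163WT F, L, M and N, chosen after seeing the data, 4 were higher and 0 lower (1088 unadjusted). Leaving out each liver gave 7 to 219 higher and 0 to 394 lower. RLE scaling, library number or total count as covariate, all 28 livers in the fit, TMM-scaled ranking, and CD163WT L and M summed kept both counts within 1.5 times.

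For the slope over 28 livers (76 higher, 13 lower), DESeq2 gave 127 and 54, no filter gave 30 lower, leaving out CD163WT L and M gave 8 lower, and leaving out CD163WT C, chosen after seeing the data, gave 12 higher and 0 lower. For the interaction, DESeq2 gave 31 higher and 2 lower and no filter gave 1 higher. With the replicate block, edgeR called 0 higher and 0 lower between groups (311 and 259 unadjusted) and 0 and 0 for the slope (245 and 259 unadjusted). The labels do not say whether the replicate letters pair these mice, and 33 of the 34 genes kept their sign under the block.

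All 34 called genes kept their sign in every other setting. Directions changed for AC151478.3 (-0.75) and Insig2 (-0.21) under the replicate block, for Mlxipl (-0.19 under the block, -0.022 in CD163WT livers alone, -0.089 with 30 livers ranked, and -0.019 to 0.21 leaving out each liver) and for Nr1h3 (-0.024 without the covariate, -0.15 in CD163WT livers alone, -0.011 with 14 against 14, and -0.016 to 0.056 leaving out each liver). The cause was not tested. The groups were made from Fasn itself, the high group held only 2 CD163WT livers, and genes under about 1 CPM rest on few reads.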
